A study of Rattus norvegicus with 44 samples.

Results

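The insulin-like growth factor (IGF) system genes described here were Igf1 and Igf2 (ligands), Igf1r and Igf2r (receptors) and Igfbp2, Igfbp3, Igfbp4, Igfbp5, Igfbp6 and Igfbp7 (binding proteins), 10 of the 14324 genes that a probe set with a single gene symbol measured. They were chosen by name, and each had 1 such probe set. The samples were whole ovaries of 4-day-old female Sprague-Dawley rats, kept in organ culture for 48 h with daily medium changes. AMH, BMP4, FGF2, FGF7, GDNF, KITLG, LIF or PDGFab was added at 50 ng/ml to 3 samples each and set against 14 untreated controls, on 38 arrays. CTGF at 50 ng/ml, also in 3 samples, had 3 untreated controls of its own, on 6 arrays that were preprocessed apart. A sample was the RNA of 2 or 3 ovaries that had shared a well and came from littermates. The p-values below measure the spread between such samples, which takes in wells, litters and culture days. Per the methods a culture day held controls and only some of the growth factors, and the labels do not give the day. Day could therefore not be fitted, and its part in the differences was not tested. All values are log2 expression levels, and a log2 change is the growth factor mean minus the control mean.

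IGF1 and IGF2 act through the receptor tyrosine kinase encoded by Igf1r, which signals through insulin receptor substrates to PI3 kinase and AKT. The receptor encoded by Igf2r carries IGF2 to the lysosome and has no kinase of its own. The binding proteins hold the ligands outside the cell, and proteases such as PAPP-A release them. In the ovary the system is known for its part in the growth and steroid production of granulosa cells of growing follicles, which a 4-day-old rat ovary, with mostly primordial follicles, has hardly begun to form.

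The promoters of 4 binding protein genes are shown because the results below turn on the levels of these genes. Each runs from 250 bases before to 50 bases after the start site in the RefSeq annotation of GRCr8, and capitals mark a motif that was searched. All 10 genes had an entry, and Igf2 had several start sites, 11 sequences in all. Igfbp2 (plus strand, chr9:81864561-81864860) and Igfbp5 (minus strand, chr9:81914138-81914437) are neighbours on chromosome 9 and are transcribed toward each other. Igfbp4 (plus strand) lies at chr10:84491221-84491520 and Igfbp3 (minus strand) at chr14:86277895-86278194.
Igfbp2: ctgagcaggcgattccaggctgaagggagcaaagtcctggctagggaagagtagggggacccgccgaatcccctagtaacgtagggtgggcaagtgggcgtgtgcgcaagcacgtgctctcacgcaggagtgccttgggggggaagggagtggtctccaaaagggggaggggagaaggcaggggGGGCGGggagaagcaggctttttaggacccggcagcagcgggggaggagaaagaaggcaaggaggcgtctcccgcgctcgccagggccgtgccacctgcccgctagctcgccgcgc
Igfbp5: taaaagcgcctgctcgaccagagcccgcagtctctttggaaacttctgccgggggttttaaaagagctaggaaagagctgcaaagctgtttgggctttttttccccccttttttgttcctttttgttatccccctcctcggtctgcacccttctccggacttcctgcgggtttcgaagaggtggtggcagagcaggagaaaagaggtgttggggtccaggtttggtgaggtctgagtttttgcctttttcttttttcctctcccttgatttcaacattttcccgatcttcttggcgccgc
Igfbp4: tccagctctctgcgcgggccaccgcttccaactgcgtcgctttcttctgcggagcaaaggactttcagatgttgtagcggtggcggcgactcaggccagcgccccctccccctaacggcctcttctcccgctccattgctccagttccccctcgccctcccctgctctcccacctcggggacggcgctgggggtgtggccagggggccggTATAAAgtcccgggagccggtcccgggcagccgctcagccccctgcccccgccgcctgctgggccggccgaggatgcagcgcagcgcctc
Igfbp3: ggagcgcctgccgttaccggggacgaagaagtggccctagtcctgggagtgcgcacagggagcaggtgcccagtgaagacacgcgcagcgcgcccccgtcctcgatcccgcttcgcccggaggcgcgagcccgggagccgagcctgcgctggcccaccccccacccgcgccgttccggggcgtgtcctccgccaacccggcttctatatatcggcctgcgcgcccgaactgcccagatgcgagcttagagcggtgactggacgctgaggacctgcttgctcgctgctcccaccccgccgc
The capitals in Igfbp2 are a GC box (GGGCGG) that begins at position -66 from the start, and those in Igfbp4 a TATA box (TATAAA) that begins at -40. On both strands, 6 of the 11 IGF system promoters held a GC box and 1 a TATA box, against 33.1% and 14.2% of 33469 rat promoters of this length. A forkhead element (GTAAACA) stood in 1 of the 11, that of Igfbp6, against 3.78% of all. The letters of a STAT element (TTCNNNGAA), an AP-1 element (TGANTCA) and a CCAAT box (CCAAT) were in none of the 11, against 8.87%, 7.33% and 37.5% of all. The Igfbp5 window held none of the motifs and had 50.7% G and C, below the 66.7%, 71% and 71.7% of Igfbp2, Igfbp4 and Igfbp3 and near the median of all promoters, 51.7%.

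The arrays carried the markers of an ovary. In all 14 controls 6 of 7 oocyte markers, 7 of 8 pregranulosa markers, 6 of 7 surface epithelium markers and 8 of 9 stroma markers lay above the median of their array, and 0 of 5 mast cell markers and 0 of 3 erythroid markers did. Between these, 3 of 5 endothelial, 4 of 7 macrophage, 2 of 5 mural and 1 of 4 steroidogenic markers did. The median level of the 38 arrays lay between 5.93 and 6.01, and that of the 6 arrays between 6.29 and 6.35. Replicate 1 of FGF2, KITLG and LIF and control 1 stood apart from the other arrays. Their oocyte markers averaged 7.66 (FGF2), 8.55 (KITLG), 8.64 (LIF) and 8.09 (control 1), against a median of 9.64 over the 14 controls. Their surface epithelium markers averaged 8.94, 9.05, 8.93 and 9.21 in the same order, against a control median of 8.20. The next lowest oocyte markers were in control 9 (8.96, with 8.82 for surface epithelium) and PDGFab replicate 1 (9.03 and 8.43). Those arrays were kept where the 4 were left out. The labels do not set these 4 arrays apart, and results that lost a call without them are given with and without them. In RNA from whole ovaries, fewer cells of a type and less RNA per cell cannot be told apart.

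None of the 90 comparisons of an IGF system gene with its controls (10 genes, 9 growth factors) passed an adjusted p of 0.05 in limma, where 0.415% of all comparisons did. At an unadjusted p under 0.05 there were 17 of 90, against 8.85% of all. The study's own criteria are wider: p up to 0.05 with no adjustment, linear means that stand in a ratio of 1.2 or more (0.83 or less for lower genes), and a gap of 10 or more between these means. By these, 14 of the 90 qualified, 10 higher and 4 lower with the growth factor, against 4.21% of all comparisons (2.33% higher, 1.89% lower) and 7.26% of those of probe sets at or above the median level, where all 10 genes lie. Here limma's p stands in for that of the methods' own test, with which 7 of the 90 qualified on linear values and 5 on log2 values. The paper's own list for AMH holds Igfbp2 and not Igfbp6, and its list for FGF2 holds neither Igfbp5 nor Igf2r. Without the 4 arrays that stood apart 10 of the 90 qualified, and likewise 10 without controls 12, 13 and 14. Each of the 14 left the criteria in at least 1 of the fits that left out 1 array of its comparison. By growth factor, 2 of the 10 genes qualified with AMH (2.15% of all probe sets), BMP4 (4.48%), FGF2 (6.79%), GDNF (5.99%), KITLG (4.44%) and LIF (3.82%), 1 with PDGFab (5.33%) and CTGF (0.761%), and 0 with FGF7 (4.16%). In no comparison did all 3 treated arrays leave the range of the controls, which 1.6% of all comparisons did. Against 14 controls this share ran from 0.227% (AMH) to 1.01% (FGF7), and with CTGF and its 3 controls it was 8.18%.

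**Figure D1:**
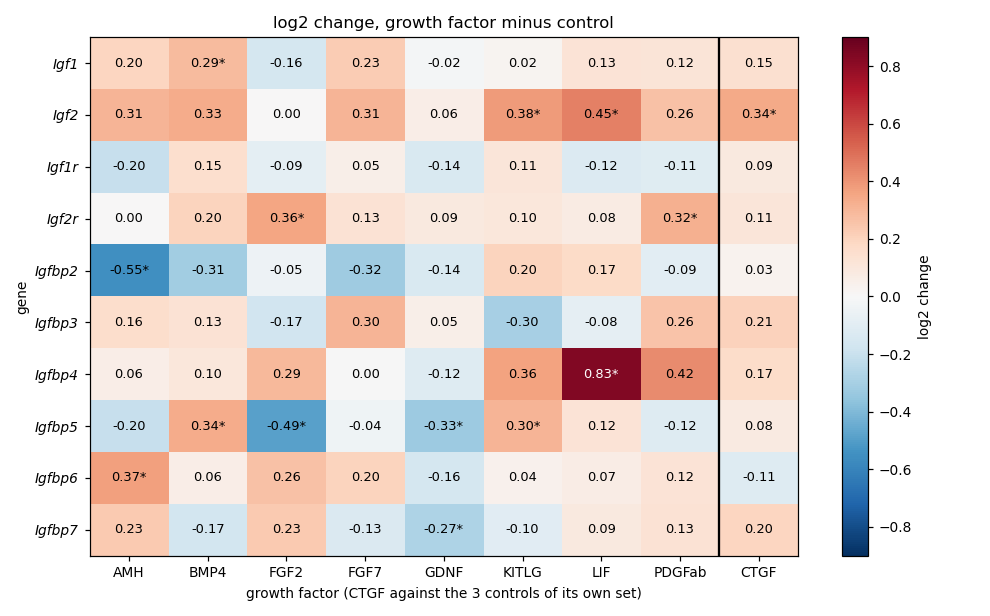
The log2 change (colour and number) of each IGF system gene (rows) with each growth factor (columns), against 14 controls or, right of the black line, against the 3 controls of the CTGF set. Asterisks mark the 14 comparisons that met the study's criteria; the values run between -0.55 (Igfbp2, AMH) and 0.83 (Igfbp4, LIF).

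Of the ligands, Igf1 had levels between 10.61 and 11.41 and a median of 11.18 in the 14 controls. With BMP4 it stood at 11.52, 11.43 and 11.27, against this control range, 0.29 higher (SE 0.11, limma adjusted p = 0.36, exact two-sided permutation p = 0.0515). Of the 3 BMP4 arrays, 2 lay above every control. Without the 4 arrays that stood apart the difference was 0.25 and outside the criteria. With all arrays it met them, as 2.11% of all probe sets did upward with BMP4. FGF7 arrays held 11.34, 11.44 and 11.27, a change of 0.23 that stayed under the ratio of 1.2, and FGF2 arrays had the lowest mean, 10.97 ± 0.10 (SD, n = 3). BMP4 exceeded FGF2 by 0.44 in a direct contrast (SE 0.14, limma adjusted p = 0.48).

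Igf2 ran between 6.27 and 7.49 in the 14 controls, with a median of 6.83. LIF arrays held 7.34, 7.11 and 7.42, a mean 0.45 above the controls (SE 0.18, limma adjusted p = 0.48, exact permutation p = 0.05), and KITLG arrays 7.64, 6.96 and 7.05, a mean 0.38 above (SE 0.18, adjusted p = 0.54). Both met the study's criteria, which 2.85% of all probe sets did upward with LIF and 2.17% with KITLG. All 3 LIF values lay inside the control range, and KITLG replicate 1 alone lay above it. Without that array the KITLG difference was 0.17, and without the 4 arrays that stood apart the differences were 0.41 with LIF and 0.15 with KITLG, neither within the criteria. AMH, BMP4, FGF7 and PDGFab arrays averaged 0.31, 0.33, 0.31 and 0.26 above the controls and did not meet the criteria, while FGF2 (0.00) and GDNF (0.06) arrays stood at the control mean.

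In the CTGF set, Igf2 stood at 7.86, 7.70 and 7.52 with CTGF, against 7.24, 7.55 and 7.26 in its controls. The groups overlapped by 1 value on each side, and the difference was 0.34 (SE 0.13, limma adjusted p above 0.99, exact permutation p = 0.2, where 3 against 3 arrays cannot go below 0.1). It was the 1 IGF system gene to meet the study's criteria with CTGF, which 0.318% of all probe sets did upward. Same-numbered CTGF and control arrays deviated together in this set, so differences within a number can be read: for Igf2 they were 0.62, 0.15 and 0.26. Of the 10 genes, 6 were higher with CTGF in 3 of 3 such pairs (Igf1, Igf2, Igf2r, Igfbp3, Igfbp5 and Igfbp7), where 30.4% of all probe sets moved the same way, up or down, in 3 of 3. Igfbp7 differed by 0.18, 0.17 and 0.24 within pairs, and Igfbp5 by 0.08, 0.06 and 0.11, although the Igfbp5 level itself ran between 12.48 and 13.22 in CTGF arrays and between 12.37 and 13.14 in controls. With the number as a block, 3 of the 10 (Igf2, Igfbp3 and Igfbp7) had an unadjusted p under 0.05 in place of 1 (Igf2) without it, against 10.2% of all probe sets with the block and 3.12% without. None was called after adjustment in either fit, and no other gene met the study's criteria.

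Igf1r, the signalling receptor, did not meet the criteria with any growth factor. Its controls ran between 9.45 and 10.46, and its log2 changes ran between -0.20 (AMH) and 0.15 (BMP4). Igf2r, which clears IGF2, had controls between 9.90 and 10.41 with a median of 10.16. PDGFab arrays held 10.61, 10.46 and 10.33, 2 of them above every control, with a mean 0.32 higher (SE 0.11, limma adjusted p = 0.23, exact permutation p = 0.00588). FGF2 arrays held 10.87, 10.26 and 10.38, a mean 0.36 higher (SE 0.11, limma adjusted p = 0.11, exact permutation p = 0.0162). Both met the study's criteria, which 3.64% of all probe sets did upward with PDGFab and 4.43% with FGF2. The FGF2 difference leaned on replicate 1, 1 of the 4 arrays that stood apart: without it the difference was 0.18, without the 4 it was 0.17, both outside the criteria, and without replicate 2 it was 0.48 and passed (limma adjusted p = 0.048). Without PDGFab replicate 1 the PDGFab difference was 0.25 and outside the criteria, which it met in the other 2 fits that left out 1 PDGFab array. Each of the other 6 growth factors gave a log2 change between 0.00 and 0.20.

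**Figure D2:**
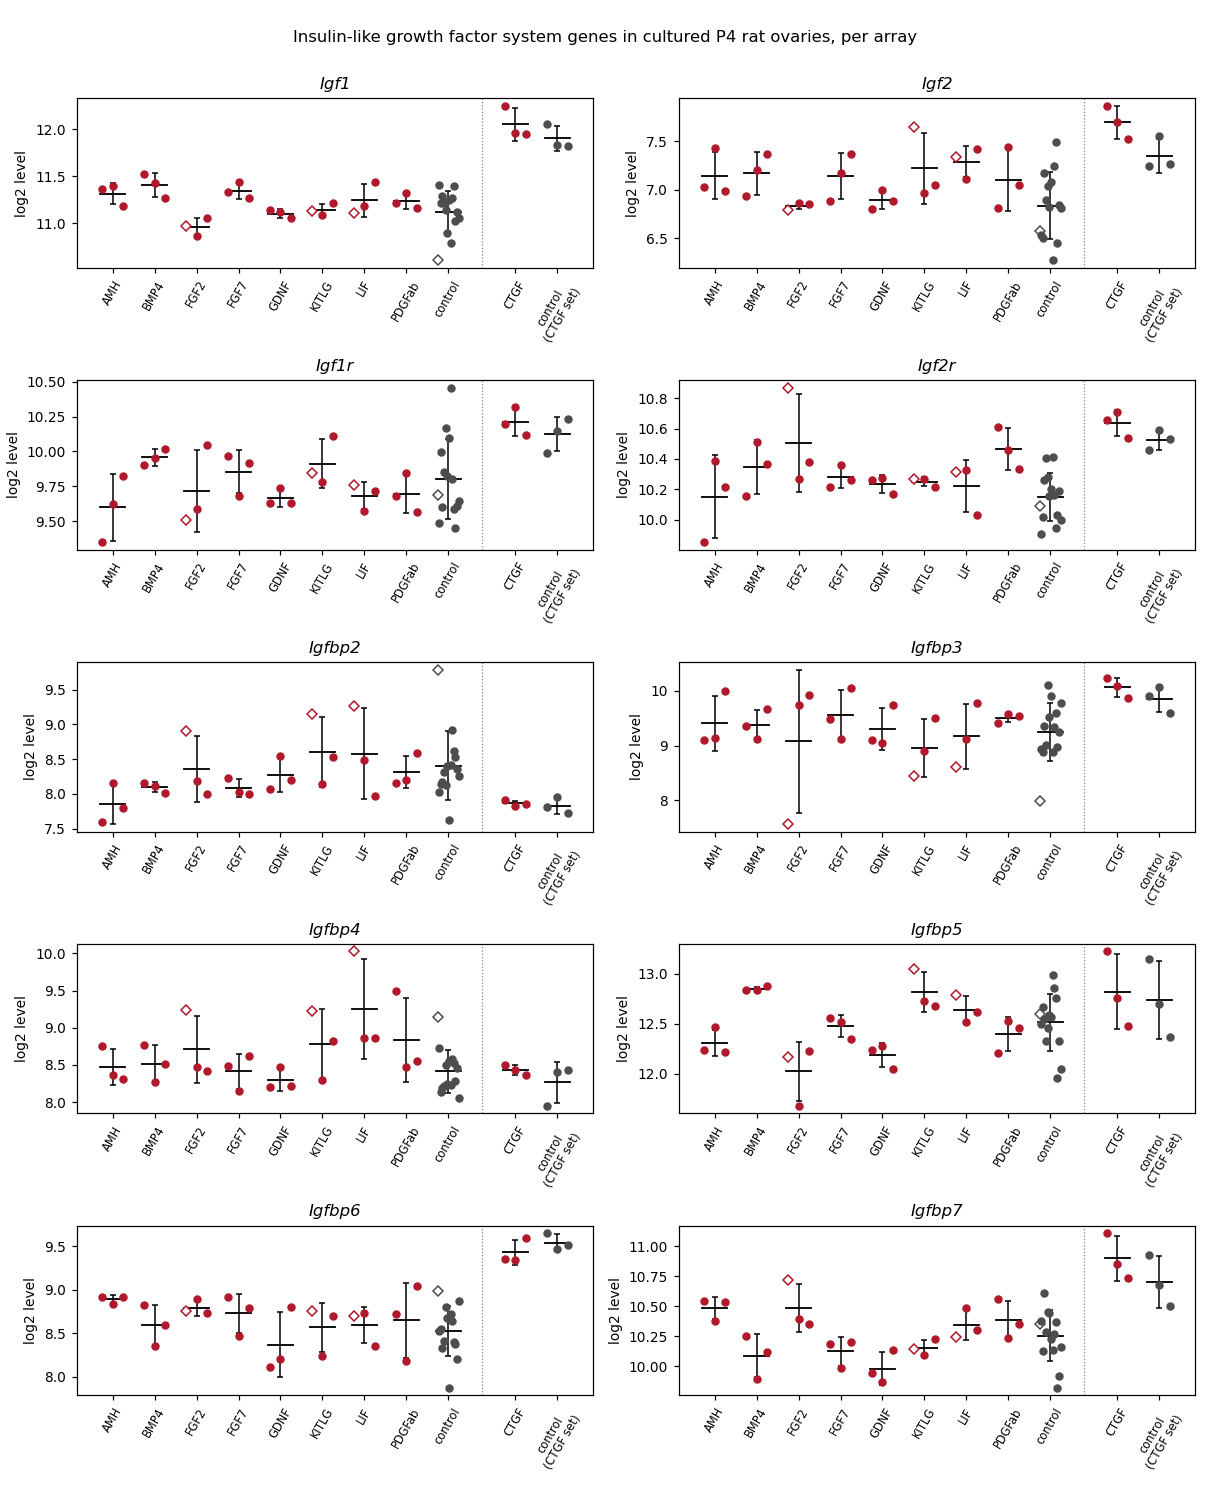
Log2 level of each IGF system gene on every array (points), with the group mean and SD (black lines). Growth factors are red and controls grey, the CTGF set is right of the dotted line, and white diamonds are the 4 arrays that stood apart (replicate 1 of FGF2, KITLG and LIF, and control 1): they hold 4 of the 5 highest Igfbp2 values and the 4 lowest Igfbp3 values among the 38 arrays.

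Igfbp5, which binds IGFs in the matrix around cells, was the 1 gene of the system called among the groups. A moderated F over the 8 growth factors gave 4.69 (limma adjusted p = 0.0397), where 2.18% of all probe sets were called. Its 14 controls ran between 11.95 and 12.99 with a median of 12.56. BMP4 arrays lay close together at 12.83, 12.84 and 12.87, and KITLG arrays at 13.04, 12.72 and 12.68. FGF2 arrays were low at 12.17, 11.68 and 12.22, and so were GDNF arrays at 12.24, 12.27 and 12.05. Against controls the differences were 0.34 with BMP4 (SE 0.14, limma adjusted p = 0.44), 0.30 with KITLG (adjusted p = 0.54), -0.49 with FGF2 (adjusted p = 0.086) and -0.33 with GDNF (adjusted p = 0.23). All 4 met the study's criteria, those for a fall being met by 2.36% of all probe sets with FGF2 and 4.03% with GDNF. In each, 3 of 3 arrays lay on the same side of the control mean, but at most 1 of the 3 lay outside the control range.

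From low to high the Igfbp5 means ran FGF2 (12.02), GDNF (12.19), AMH (12.31), PDGFab (12.40), FGF7 (12.48), LIF (12.64), KITLG (12.81) and BMP4 (12.85), with the controls at 12.51. The arrays of each growth factor overlapped those of its neighbours in this order. Between the ends, BMP4 exceeded FGF2 by 0.82 (SE 0.18, limma adjusted p = 0.0929) and GDNF by 0.66 (SE 0.18, limma adjusted p = 0.0452), where 0.0549% and 2.4% of all probe sets were called. The BMP4 and GDNF arrays did not overlap, and the exact permutation p was 0.1, the smallest for 3 against 3. That contrast was 1 of 2 called among 83 contrasts between growth factors over 8 of the genes, against 0.667% of all probe sets in the same contrasts. These were contrasts in which 1 growth factor had met the criteria against controls, so their number with an unadjusted p under 0.05, 28 (7.47% over all probe sets), is given as a description. Igf1r and Igfbp3 had no such contrast.

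The Igfbp5 calls were close to the threshold. The contrast of BMP4 with GDNF lost its call when any 1 of its 6 arrays was left out (adjusted p between 0.0844 and 0.136), and the F lost its call in 15 of 24 fits that each left out 1 treated array (adjusted p up to 0.0888) and without the 4 arrays that stood apart (F = 3.61). Controls 12, 13 and 14 were the lowest controls for this gene, at 11.95, 12.32 and 12.05, next to the GDNF values, although control 5 also stood at 12.32. Without controls 12, 13 and 14 the difference was -0.60 with FGF2 and -0.44 with GDNF (limma adjusted p = 0.006 and 0.0114). The differences with BMP4 and KITLG were then 0.23 and 0.19 and no longer met the criteria. Leaving out the lowest controls raises the control mean by itself, which enlarges a fall and shrinks a rise. The labels do not set these controls apart, so these p-values add no support. Without FGF2 replicate 2, the lowest array, the FGF2 difference was -0.32, and without the 4 arrays that stood apart the KITLG difference was 0.20, both outside the criteria. Leaving out any 1 BMP4 array also took the BMP4 difference out of the criteria, at 0.32 to 0.34.

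**Figure D3:**
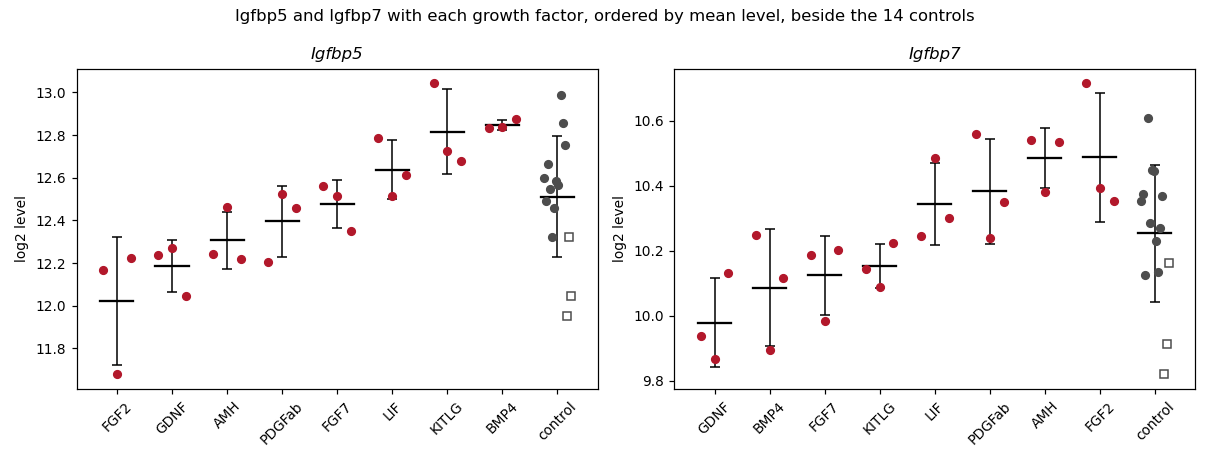
Log2 levels of Igfbp5 (left) and Igfbp7 (right) per array (points) with group mean and SD (black), growth factors ordered by mean and the 14 controls at the right end. White squares are controls 12, 13 and 14, which lie near the GDNF arrays for both genes; BMP4 is at the top for Igfbp5 (12.85) and next to the bottom for Igfbp7 (10.09).

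Igfbp7, a low-affinity relative found around vessels, had controls between 9.82 and 10.61 with a median of 10.28. GDNF arrays held 9.94, 9.87 and 10.13, a log2 change of -0.27 (SE 0.11, limma adjusted p = 0.195) that met the study's criteria with all 3 values inside the control range. FGF2 arrays held 10.72, 10.39 and 10.35, and AMH arrays 10.54, 10.38 and 10.53, both 0.23 higher than the controls and under the ratio of 1.2. GDNF was lower than FGF2 by a log2 difference of -0.51 (SE 0.14, limma adjusted p = 0.0432, where 3.13% of all probe sets were called), with no overlap of the arrays and an exact permutation p of 0.1. This call held in 1 of the 6 fits that each left out 1 of its arrays (adjusted p between 0.0499 and 0.223), and it was lost without the 4 arrays that stood apart (-0.39). Controls 12 to 14 again lay low, at 9.82, 9.91 and 10.16.

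Igfbp4, whose product is the classical substrate of the protease PAPP-A, held the largest difference of the 90. LIF arrays stood at 10.03, 8.87 and 8.86, against 8.06 to 9.15 with a median of 8.37 in the 14 controls, a mean 0.83 higher (SE 0.22, limma adjusted p = 0.13, exact permutation p = 0.00735). All 3 LIF arrays lay above 13 of the 14 controls, the exception being control 1 at 9.15, and LIF replicate 1 lay above all. That replicate and control 1 are among the 4 arrays with low oocyte markers. Without LIF replicate 1 the difference was 0.44 and did not meet the criteria, and without the 4 arrays it was 0.50 and still did (adjusted p above 0.99). PDGFab arrays held 9.49, 8.48 and 8.55 (0.42 higher, adjusted p = 0.56), KITLG arrays 9.23, 8.29 and 8.82 (0.36 higher) and FGF2 arrays 9.23, 8.47 and 8.42 (0.29 higher). In each of these 4 treatments replicate 1 was the highest, and it was the array with the lowest oocyte markers of its group. LIF exceeded GDNF by 0.95 in a direct contrast (SE 0.28, limma adjusted p = 0.0517).

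Igfbp2 ran between 7.62 and 9.79 in the 14 controls, with a median of 8.34 and the highest value in control 1. AMH arrays held 7.60, 8.16 and 7.80, a log2 change of -0.55 (SE 0.26, limma adjusted p = 0.98, exact permutation p = 0.103), and 1 of the 3 lay below every control. This met the study's criteria, which 0.731% of all probe sets did downward with AMH. Without the 4 arrays that stood apart, control 1 among them, the difference was -0.45 and still met them. Of the 3 fits that left out 1 AMH array, with differences between -0.71 and -0.42, 1 met the criteria. The difference left the criteria without controls 12, 13 and 14, with array weights, and with only the AMH arrays and controls in the fit. Igfbp6, which prefers IGF2 to IGF1, stood at 8.92, 8.84 and 8.92 with AMH, against 7.88 to 8.98 with a median of 8.54 in controls, 0.37 higher (SE 0.17, limma adjusted p = 0.98) and within the criteria, which 1.42% of all probe sets met upward. Leaving out any 1 AMH array took Igfbp6 out of the criteria. Igfbp3, the main carrier in blood, did not meet the criteria with any growth factor: its controls ran between 8.0 and 10.10 (SD 0.53, n = 14), and its changes between -0.30 (KITLG) and 0.30 (FGF7), each with an SE of 0.35.

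The spread of Igfbp3 and Igfbp2 from array to array followed cell type markers. Correlations over arrays are given as descriptions, since arrays share the culture, the pups and the amounts of each cell type. Igfbp3 varied with the mean of 5 endothelial markers (Cdh5, Tek, Emcn, Tie1 and Egfl7), with r = 0.88 (rho 0.90) over the deviations of 24 treated arrays from their group means and r = 0.87 (rho 0.85) over 14 controls. Leaving out the 2 arrays farthest from the median gave 0.89 in treated arrays and 0.78 in controls, and leaving out those with low oocyte markers 0.86 and 0.85. Other lists went with Igfbp3 as well. With the oocyte markers r was 0.82 over treated deviations and 0.72 over controls (0.60 and 0.37 without the arrays with low ones). In the same order it was -0.67 and -0.63 with surface epithelium, -0.74 and -0.13 with macrophage, and 0.62 and 0.65 with pregranulosa markers. With mural markers it was -0.68 and -0.42. The genes most like Igfbp3 over the controls, among 8414 at or above the median level, were Slc30a4, Flt1 (a VEGF receptor of endothelium) and Adgre5, with r of 0.93, 0.93 and 0.92, and over treated deviations these had r of 0.46, 0.86 and 0.59. Tie1 and Cdh5 had r of 0.90 and 0.83 over treated deviations and 0.78 and 0.83 over controls, while Egfl7 had 0.75 and 0.70, Emcn 0.51 and 0.42, and Tek, an endothelial receptor too, 0.24 and 0.04. Endothelial markers were lowest in KITLG replicate 1 (6.66), where Igfbp3 was 8.45, and the lowest Igfbp3 level, 7.57, was in FGF2 replicate 1, with 6.88 for the markers.

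Igfbp2 went with 7 surface epithelium markers, with r = 0.75 (rho 0.65) over 24 treated deviations and 0.83 (rho 0.68) over 14 controls. Without the arrays with low oocyte markers these were 0.47 and 0.61. With 7 oocyte markers its r was -0.71 and -0.80, and -0.41 in both without those arrays. With all arrays, r was -0.72 and -0.52 with the endothelial, 0.54 and 0.77 with the mural, and 0.66 and 0.36 with the macrophage markers. Krt19 and Krt8, keratins of the surface epithelium, had r of 0.85 and 0.78 over treated deviations and 0.74 and 0.87 over controls. Krt18, a keratin too, had 0.015 over treated deviations and 0.83 over controls. The other markers of this list were Podxl (0.81 over treated deviations and 0.68 over controls), Aldh1a2 (0.80 and 0.64), Msln (0.63 and 0.79) and Upk1b (0.41 and 0.45). The genes most like Igfbp2 over the controls were Tmem134, Fem1c and Rab34, with r between 0.90 and 0.92 and, over treated deviations, of 0.81, 0.63 and 0.75. Igfbp4 had r of -0.77 with the oocyte markers over treated deviations and -0.76 over controls, and -0.68 and -0.40 without the arrays with low oocyte markers. It had 0.87 and 0.50 with the surface epithelium markers (0.78 and -0.05 without those arrays), and -0.81 and -0.56 with the pregranulosa markers (-0.71 and -0.21 without). The part of cell makeup in the differences between growth factors and controls was not tested.

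**Figure D4:**
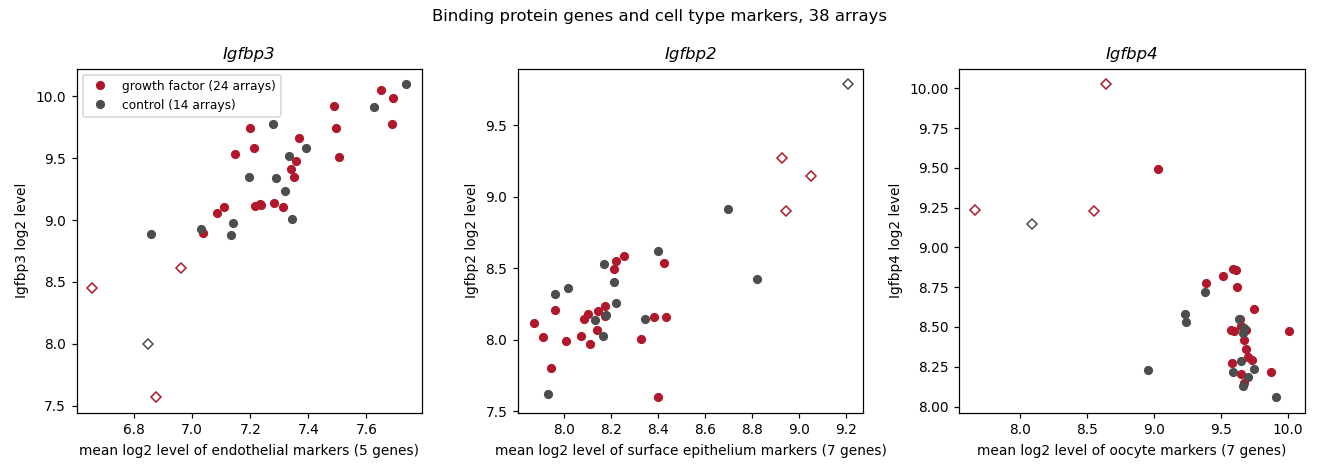
Log2 level of Igfbp3, Igfbp2 and Igfbp4 (vertical axes) against the mean log2 level of endothelial, surface epithelium and oocyte markers (horizontal axes) on 38 arrays; growth factors are red, controls grey, and white diamonds the 4 arrays that stood apart. Over controls r was 0.87, 0.83 and -0.76, and the diamonds hold low endothelial, high surface epithelium and low oocyte markers.

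Igfbp5 had r of 0.47 with the surface epithelium markers over treated deviations and 0.53 over controls, and -0.48 and -0.47 with the oocyte markers. Without the arrays with low oocyte markers these were 0.19 and 0.67, and -0.25 and -0.73. Over treated deviations and controls, Igfbp5 had -0.49 and -0.54 with the stroma, -0.59 and -0.18 with the endothelial, and 0.46 and -0.12 with the macrophage markers. It had -0.73 and -0.34 with the steroidogenic markers, and -0.39 and -0.72 with the erythroid markers. Of these last lists, 1 of 4 and 0 of 3 markers lay above the array median in all controls. The genes most like it over the 14 controls were Acy3, Rmdn2 and Rxra (a retinoid receptor), each with r of 0.94 or 0.95, and over treated deviations their r was 0.28, 0.51 and 0.73. For Igfbp4 they were Slc7a8, Fhl3 and Flt4, with r of 0.88, 0.84 and 0.84 over controls and 0.80, 0.86 and 0.68 over treated deviations. Within the system, Igfbp2 and Igfbp3 ran opposite to each other (r = -0.65 over treated deviations, -0.66 over controls), and Igfbp2 and Igfbp4 together (0.62 and 0.56). Without the arrays with low oocyte markers these were -0.42 and -0.26 for the first pair and 0.27 and -0.04 for the other. The sign of r was the same in treated deviations and in controls for 25 of 45 pairs of IGF system genes. Igf1r and Igf2r, the pair with the highest r over controls (0.65), had r of -0.01 over treated deviations.

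Around the 10 genes, 35 of 46 further pathway genes had a probe set of 1 symbol; the others were not analysed here. None was called at an adjusted p of 0.05 by limma in the 315 comparisons, where 0.415% of all comparisons were. There were 29 with an unadjusted p under 0.05 (8.85% of all comparisons), and 21 within the study's criteria (4.21% of all, and 7.26% of those at or above the median level), 19 higher and 2 lower. Without the 4 arrays that stood apart 14 of the 21 still met them. Those that did not were Irs1, Shc1 and Grb14 with FGF2, Stc2 and Foxo3 with KITLG, and Adamts1 with LIF and PDGFab. Insr, the insulin receptor, was higher with FGF7 (0.45), BMP4 (0.39), AMH (0.37) and PDGFab (0.33), with limma adjusted p of 0.18, 0.24, 0.86 and 0.34. It was the gene of the list that met the criteria with the most growth factors. Of the genes that set free or guard IGF, Pappa met them with PDGFab (0.48) and LIF (0.46), Stc2, an inhibitor of PAPP-A, with KITLG (0.29), AMH (0.28) and PDGFab (0.27), and Adamts1, a protease, with LIF (0.32), AMH (0.31) and PDGFab (0.31). Igfbp1, the neighbour of Igfbp3 on chromosome 14, met them with PDGFab (0.45) and AMH (0.34), at levels of 5.37 to 6.18 and 5.29 to 6.04, against a control mean of 5.24 that lies under the array medians.

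Downstream of the receptor, the substrate gene Irs1 met the criteria with FGF7 (0.34) and FGF2 (0.31), and Shc1, an adaptor to Ras, with FGF2 (0.32). Foxo3, a forkhead factor that AKT keeps out of the nucleus, did with KITLG (0.39), and Grb10, an adaptor that restrains the receptor, with PDGFab (0.40). The 2 lower genes were Grb14, a relative of Grb10, with FGF2 (-1.02, adjusted p = 0.30) and Pik3r2, a regulatory subunit of PI3 kinase, with AMH (-0.41, adjusted p = 0.97). Grb14 stood at 6.53, 8.59 and 8.87 with FGF2, against a control mean of 9.02 ± 0.63 (SD, n = 14). The lowest value was in replicate 1, and without the 4 arrays that stood apart the difference was -0.42 (limma adjusted p = 0.69) and outside the criteria. The median log2 change of the 10 IGF system genes was highest with BMP4 (0.14) and CTGF (0.13) and lowest with GDNF (-0.13), against medians over all probe sets of 0.00, 0.00 and 0.04.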

How the data were processed

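RNA of cultured whole ovaries was hybridised to Affymetrix Rat Gene arrays. Per the labels and methods, the authors preprocessed 38 arrays together and the 6 CTGF arrays apart in Partek (RMA, adjusted for the GC content of probes), and the deposited values are log2 levels. They were used as deposited, and every comparison stayed within a set. The number of arrays limits the precision. Of 27342 probe sets, 15097 carried 1 symbol, 323 several and 11922 none. For GDNF the labels give 3 samples and the study's text fewer; all were used.

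Each growth factor was compared with its controls by lmFit and eBayes of limma 3.58.1 (R 4.3.3), the 38 arrays in 1 fit, with Benjamini-Hochberg adjustment over all probe sets. The study criteria used limma's unadjusted p. Exact permutation tests used all 680 splits (3 against 14) or 20 (3 against 3) and are two-sided. The fit was tested on simulated data. Direct contrasts set each growth factor for which a gene met the criteria against the other 7.

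All 10 genes are named. Of the wider list, genes that met the criteria are named, and as genes of like pattern the 3 of highest r over the controls. Endothelial and keratin genes of the marker lists were named after their values were seen. The members and lists were chosen with earlier results of these data known.

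Numbers pair arrays in the CTGF set, where deviations of same-numbered arrays correlated (r = 0.842, 0.623 and 0.647). In the 38 arrays they do not by this measure, although replicate 1 of FGF2, KITLG and LIF deviated with control 1. Alternatives were other arrays in the fit, other tests, array weights, a variance trend, normalization, centring, a filter on dim probe sets and leaving out arrays. Figures were drawn with matplotlib 3.10.9 in Python 3.11.15.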

Additional observations from a re-analysis of the deposited data

Results flagged for a closer look

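Among the direct contrasts between growth factors, 2 passed the adjusted threshold. The contrasts were chosen because 1 growth factor had met the criteria against controls on the same arrays, so they add no independent support. Igfbp5 was higher with BMP4 than with GDNF by 0.66 on the log2 scale (limma adjusted p = 0.0452). Igfbp7 was lower with GDNF than with FGF2, with a log2 difference of -0.508 (limma adjusted p = 0.0432). Of the 6 fits that each left out 1 array of the contrast, the Igfbp5 call held in 0 and the Igfbp7 call in 1. Both involve GDNF, whose arrays lay near controls 12, 13 and 14 for both genes, and which gave more calls over all probe sets in such contrasts than the others did: 2.4% against BMP4 and 3.13% against FGF2, where BMP4 against FGF2 gave 0.0549%. Why these controls lay near the GDNF arrays was not tested. No group of growth factor arrays was large enough to be searched for single outlying arrays.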

How the results depend on the processing

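None of the 16 named differences changed sign under any alternative. Without any change of setting there were 0 adjusted calls against controls, 14 comparisons within the study's criteria, 1 gene called by the F and 2 called contrasts. Array weights gave 5 adjusted calls (Igfbp5 with BMP4, FGF2 and GDNF, Igfbp7 with GDNF, Igfbp4 with LIF), 2 genes by the F (Igfbp5 and Igfbp7) and 10 contrasts. Leaving out controls 12, 13 and 14 gave 3 adjusted calls (Igfbp5 with FGF2 and GDNF, Igfbp7 with GDNF), 2 genes by the F and 10 contrasts. These were the lowest controls for Igfbp5, and 12 and 13 the lowest for Igfbp7, so leaving them out enlarges such falls by itself. With the replicate block, 2 genes passed the F and 10 contrasts were called, and no adjusted call against controls was gained. In the 38 arrays same-numbered pairs correlated between -0.555 and 0.74, with 7 of 24 over 0.1, and 3 of 24 treated arrays matched their own number best (FGF2, LIF and KITLG arrays that, with control 1, are the 4 with low oocyte markers; r = 0.74, 0.69 and 0.61), so that the block there describes only the number. Quantile normalization once more gave 1 adjusted call (Igfbp5 with FGF2, limma adjusted p = 0.0312) and the contrast of Igfbp7 between GDNF and FGF2 lost its call (-0.44). A variance trend with robust estimation gave 4 contrasts. Without the 4 arrays with low oocyte markers, a setting chosen after seeing the data, no gene passed the F (Igfbp5 3.61), 1 contrast was called, and Igfbp7 between GDNF and FGF2 differed by -0.39. An equal-variance t-test, in place of limma, left 7 comparisons within the criteria on linear values and 5 on log2 values. Counting by the study's criteria in place of the adjusted p gave 14. Leaving out 1 array at a time gave 0 to 1 adjusted calls, 12 to 15 comparisons within the criteria, 0 to 1 genes by the F (Igfbp5 3.76 to 4.74) and 0 to 3 contrasts, with 0.59 to 0.70 for Igfbp5 between BMP4 and GDNF and -0.58 to -0.39 for Igfbp7 between GDNF and FGF2. The cause of these shifts was not tested. Each gene had 1 probe set, so another probe set could not be tried.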
